A study of Mus musculus with 32 samples.

Results

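The genes described here are 34 genes of the presynaptic terminal, the synaptic vesicle and release machinery, measured in the frontal cortex of 32 mice inoculated with primate gut microbiota. The members are a fixed list of gene symbols, matched to the Ensembl identifiers of the count table. All 34 were among its 23958 genes, and all 34 were among the 12651 genes that passed the filter on low counts. The lowest count of any member in any mouse was 3.

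Of the mice, 12 were inoculated with microbiota of humans, 8 with that of squirrel monkeys (Saimiri boliviensis) and 12 with that of macaques (Macaca mulatta). The tissue was the prelimbic and infralimbic part of the frontal cortex. All 3 groups share the treatment given in the labels, inoculation with a microbiome, and the design names no uninoculated mice. The sources used here do not give the mouse strain, genotype or age, the state of the mice before inoculation or the number of donors. Libraries were tag-based (TagSeq), a method that reads the 3′ end of transcripts, so levels are given as CPM, counts brought to the same library total, and are not compared between genes. In these bulk libraries, fewer cells of a type and less RNA per cell cannot be told apart.

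The total was 1035036 to 2089308 counts per mouse. The human mice were split over batches A and B, the squirrel monkey mice over C and D, and the macaque mice over E and F, and no column of the library plate mixed donor species. Effects of the donor, of the batch and of the plate column cannot be told apart. Beyond the batch, no cage, litter or donor of a mouse is labelled, so p-values measure the spread between mice. All 8 markers of cortical excitatory neurons and all 8 of inhibitory neurons were counted in every mouse. Oligodendrocyte markers differed widely between mice: the summed level of 15 such genes was 935 to 11626 CPM in the human group, 1067 to 6052 CPM in the squirrel monkey group and 826 to 4100 CPM in the macaque group. Macaque replicate 6 was the lowest mouse of its group for 15 of the 34 members, and squirrel monkey replicate 3 was the highest of its group for 15.

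At a presynaptic terminal, vesicles are filled with transmitter by vesicular transporters, docked and primed at the active zone, and fused with the plasma membrane by SNARE proteins when calcium binds a synaptotagmin. The ATPase NSF with its SNAP adaptors then takes the SNARE complexes apart, and the vesicle membrane is retrieved by endocytosis. In cortex, VGLUT1, encoded by Slc17a7, is the main vesicular glutamate transporter of the cortical neurons themselves, and VGLUT2, encoded by Slc17a6, is typical of thalamic and other subcortical glutamatergic neurons.

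Between mice with human and with macaque microbiota, 5 of the 34 members passed the threshold (adjusted p under 0.05, edgeR quasi-likelihood test): Slc17a7 was higher in the human group, and Nsf, Pclo, Rab3c and Syt1 were lower. That is 14.7% of the members, against 8.01% of all genes tested in this comparison (4.47% higher and 3.54% lower). The differences were small, from a fold of 0.832 for Pclo to 0.886 for Syt1 among the lower genes and 1.19 for Slc17a7. The median log2 fold change of the 34 members was -0.03 (all genes -0.00105), 16 values were positive and 18 negative, and the median absolute value was 0.13 (all genes 0.12). At an unadjusted p under 0.05, 13 of the 34 members passed, and 23.1% of all genes did. No member passed between squirrel monkey and macaque mice, where 0.64% of all genes did, or between human and squirrel monkey mice, where 0.134% of all genes did. At an unadjusted p under 0.05 these comparisons gave 8 of the 34 members (13.2% of all genes) and 5 of the 34 (10% of all genes).

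**Figure D1:**
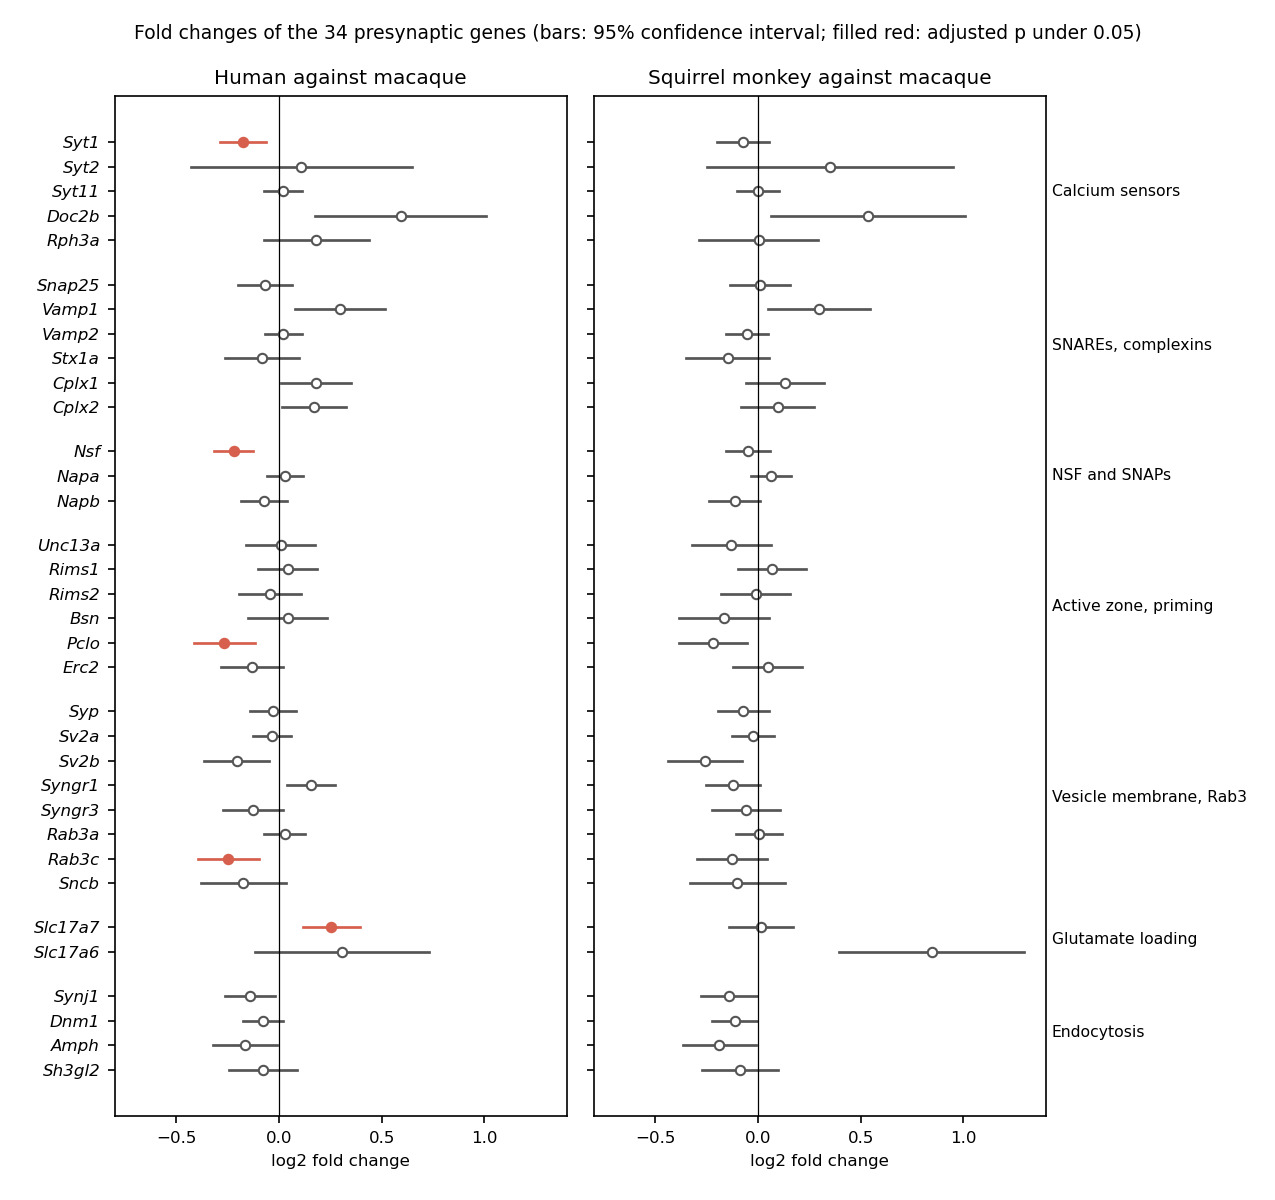
Log2 fold change of each of the 34 presynaptic genes (rows, in role groups) in human against macaque mice (left) and squirrel monkey against macaque mice (right). Points are edgeR estimates, bars are 95% confidence intervals, and the 5 filled red points on the left passed an adjusted p of 0.05. Both panels share the 12 macaque mice.

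For 4 of the 5 members that passed between human and macaque mice, the promoter is shown as the 250 bases before the transcription start, since these genes carry the difference and each has 1 start in the table used. One of the 4, Slc17a7, was higher and the others were lower. The sequences are RefSeq's on build GRCm38.p6, which is not the build of the counts (GRCm39), and the coordinates are of that table: chr7:45163671-45163920 on the plus strand, chr11:103954057-103954306 on the minus strand, chr5:14514668-14514917 on the plus strand and chr13:110280207-110280456 on the minus strand. They run 5′ to 3′ along the gene, and capitals mark each match to a GC box, GGGCGG or its complement CCGCCC.
Slc17a7: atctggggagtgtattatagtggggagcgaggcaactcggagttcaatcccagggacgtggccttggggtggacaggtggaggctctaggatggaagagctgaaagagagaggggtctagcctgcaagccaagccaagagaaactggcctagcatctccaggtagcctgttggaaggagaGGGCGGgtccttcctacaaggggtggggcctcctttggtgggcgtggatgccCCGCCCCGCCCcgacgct
Nsf: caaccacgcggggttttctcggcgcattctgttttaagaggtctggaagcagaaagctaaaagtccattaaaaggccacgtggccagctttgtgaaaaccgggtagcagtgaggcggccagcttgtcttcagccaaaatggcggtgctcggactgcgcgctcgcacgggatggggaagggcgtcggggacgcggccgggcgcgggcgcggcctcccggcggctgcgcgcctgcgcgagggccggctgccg
Pclo: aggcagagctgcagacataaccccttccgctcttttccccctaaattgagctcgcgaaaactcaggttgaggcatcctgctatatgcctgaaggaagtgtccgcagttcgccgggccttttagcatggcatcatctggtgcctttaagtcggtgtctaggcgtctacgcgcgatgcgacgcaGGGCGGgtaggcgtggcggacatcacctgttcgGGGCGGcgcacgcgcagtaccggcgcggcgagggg
Rab3c: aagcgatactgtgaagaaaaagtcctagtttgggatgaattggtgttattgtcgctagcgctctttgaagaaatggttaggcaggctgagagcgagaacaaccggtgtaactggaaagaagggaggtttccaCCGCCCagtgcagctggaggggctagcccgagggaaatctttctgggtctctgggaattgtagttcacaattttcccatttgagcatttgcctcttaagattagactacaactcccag
The Slc17a7 window held 3 GC box matches (overlapping ones counted), the Pclo window 2, the Rab3c window 1 and the Nsf window 0. Promoter windows were found for 29 of the 34 members, with 39 windows in all. A GC box stood in 56.4% of the members' windows and in 32.7% of the 32851 windows of all genes. A cyclic AMP response half-site (TGACG or CGTCA) stood in 23.1% of the members' windows against 17.8% of all, and a TATA box (TATAAA or TTTATA) in 5.13% against 12.4%. These are matches of letters in a fixed window and not measured sites, and the libraries hold no readout of promoters.

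Of the 2 vesicular glutamate transporters, Slc17a7 was higher in human mice and Slc17a6 had its highest levels in squirrel monkey mice. Slc17a7 lay at 392 to 571 CPM (median 471) in the human group, 341 to 462 CPM (median 390) in the squirrel monkey group and 308 to 472 CPM (median 395) in the macaque group. The groups overlapped, but 11 of 12 human mice exceeded the macaque median. Slc17a7 rose by a log2 fold change of 0.25 ± 0.07 (SE) in human against macaque mice (adjusted p = 0.0163, edgeR), and its value was 0.24 ± 0.08 against squirrel monkey mice (adjusted p = 0.205) and 0.01 ± 0.08 between squirrel monkey and macaque mice (adjusted p = 0.963). The 2 human batches averaged 478 and 470 CPM, above the 398 and 394 CPM of the macaque batches. The call was kept in each of the 32 fits without 1 mouse (adjusted p from 0.00824 to 0.0349). It was lost in 6 of 16 other settings: with the library total as a covariate (0.20, adjusted p = 0.0972), with counts summed per batch (0.24, adjusted p = 0.102) and without batch A, B, E or F (0.24 to 0.27, adjusted p from 0.0729 to 0.105).

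Slc17a6 was sparse, at 6.11 to 27.0 CPM (median 14) in the human group, 13.6 to 35.8 CPM (median 20.4) in the squirrel monkey group and 6.49 to 19.5 CPM (median 12.6) in the macaque group. All 8 squirrel monkey mice were above the macaque median, and 7 of 12 human mice were. The log2 fold change of squirrel monkey against macaque was 0.85 ± 0.22 (95% confidence interval 0.39 to 1.3), which did not pass in edgeR (adjusted p = 0.0613). An F-test asking whether any of the 3 groups differed called it (adjusted p = 0.039). That call was lost in 9 of 32 fits without 1 mouse (squirrel monkey replicate 2, 7 or 8, or macaque replicate 1, 5, 7, 8, 9 or 11, adjusted p up to 0.124). It was also lost in 8 of 16 other settings, with an adjusted p of up to 0.187 without batch D. DESeq2, limma voom with sample weights, counts summed per batch and the removal of batch B each put Slc17a6 past the threshold between squirrel monkey and macaque mice, and so did the removal of human replicate 9 or 12, squirrel monkey replicate 5 or 6, or macaque replicate 4 or 6.

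Slc17a6 was also the member with the steepest slope on an oligodendrocyte score, described further down, at 0.34 per unit. With that score as a covariate the F-test of Slc17a6 gave an adjusted p of 0.082. The thalamic marker list, which could mark tissue that expresses Slc17a6, had 0 of 7 genes past the threshold in any of the 3 pairwise comparisons, with a summed level of 129 to 263 CPM in human, 129 to 192 CPM in squirrel monkey and 127 to 183 CPM in macaque mice, and all 7 were counted in every mouse of each group. Against macaque mice, 7 of 7 thalamic values were positive in human mice (median log2 fold change 0.214, all genes -0.00105). In squirrel monkey mice 5 of 7 were (median 0.0819, all genes 0.000759). Tcf7l2, a transcription factor of thalamic neurons, had medians of 17.8, 17 and 14.8 CPM in the human, squirrel monkey and macaque groups. The part of such tissue in the Slc17a6 levels was not tested.

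**Figure D2:**
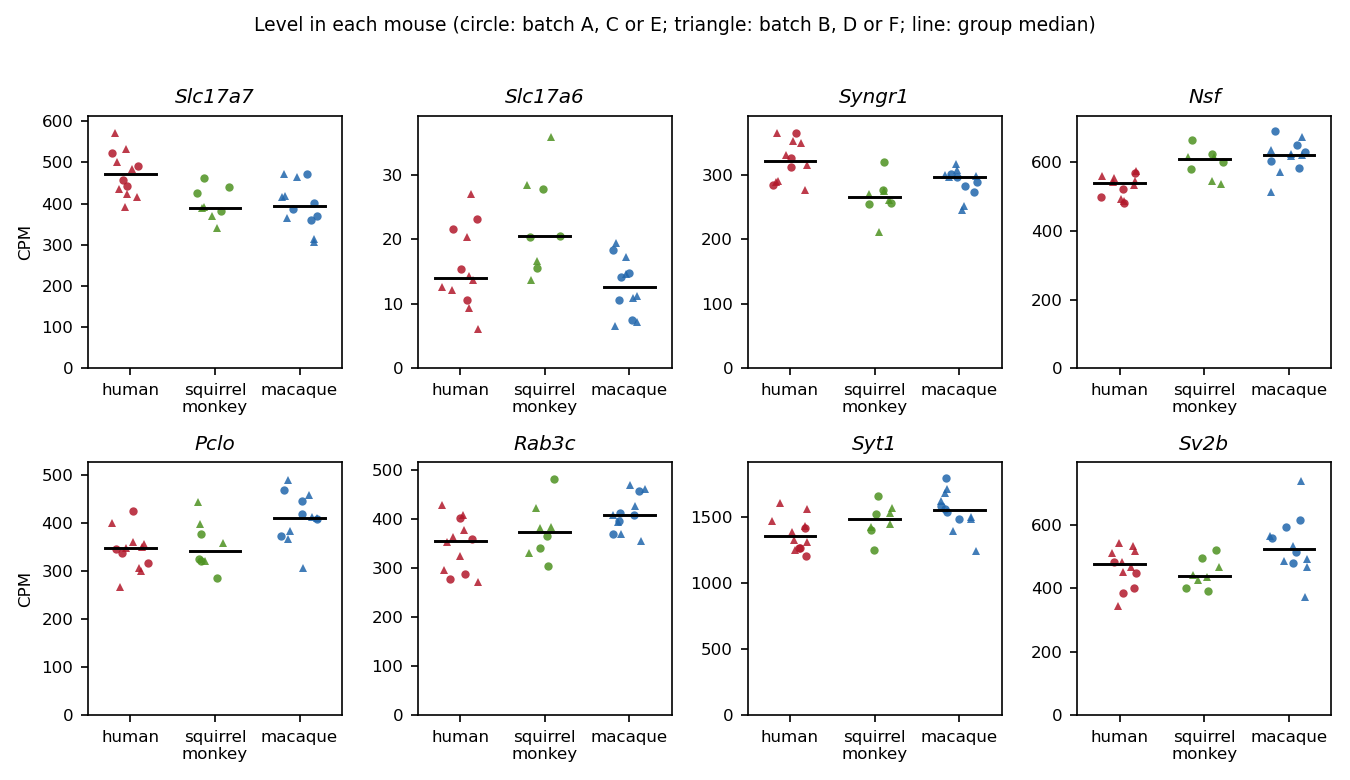
Level in CPM (linear axis from 0) of the 8 members that passed in a comparison or in the F-test, in each of the 32 mice by donor group. Points are mice, with the first batch of a group as circles and the second as triangles, and the line is the group median. In every panel the human and macaque mice overlap.

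Among the 3 genes that take SNARE complexes apart, Nsf, the ATPase itself, was lower in human mice, whereas its adaptors Napa (alpha-SNAP) and Napb (beta-SNAP) did not pass. Nsf lay at 481 to 574 CPM (median 538) in the human group, 536 to 665 CPM (median 608) in the squirrel monkey group and 513 to 689 CPM (median 621) in the macaque group. No human mouse was above the macaque median, although the ranges overlapped. Nsf fell by a log2 value of 0.22 ± 0.05 (SE) in human against macaque mice (adjusted p = 0.00184, edgeR), the smallest adjusted p of the 34 members in that comparison. Against squirrel monkey mice the value was -0.17 ± 0.05 (adjusted p = 0.175), and squirrel monkey against macaque it was -0.05 ± 0.05 (adjusted p = 0.751). The human batch means were 517 and 536 CPM, the squirrel monkey means 617 and 577 CPM, and the macaque means 631 and 607 CPM.

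Nsf kept the same sign in each of the 32 fits without 1 mouse and passed in all of them (adjusted p from 0.00038 to 0.0045). It passed in 15 of 16 other settings and did not with counts summed per batch, which leaves 2 samples a group (-0.25, adjusted p = 0.0753).

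Napb lay at 839 to 994 CPM (median 875) in the human group, 786 to 936 CPM (median 890) in the squirrel monkey group and 685 to 1108 CPM (median 957) in the macaque group. The human range lay inside the macaque range. Its log2 fold change was -0.07 ± 0.06 in human (adjusted p = 0.467) and -0.11 ± 0.06 in squirrel monkey mice (adjusted p = 0.441) against the same macaque mice. Napa had the lowest spread of any member, with a biological coefficient of variation of 5.92%, and lay at 197 to 262 CPM over all mice (log2 fold change 0.03, adjusted p = 0.746, human against macaque).

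At the active zone, the scaffold protein piccolo (Pclo) was lower in human mice, and the other 5 members did not pass. Pclo lay at 266 to 425 CPM (median 348) in the human group, 286 to 444 CPM (median 342) in the squirrel monkey group and 307 to 491 CPM (median 411) in the macaque group. All 3 ranges overlapped, and 1 of 12 human and 1 of 8 squirrel monkey mice were above the macaque median. Pclo fell by 0.27 ± 0.07 on the log2 scale in human against macaque mice (adjusted p = 0.0174). The value for squirrel monkey against macaque was -0.22 ± 0.08 (95% confidence interval -0.39 to -0.05, adjusted p = 0.214), and between human and squirrel monkey mice it was -0.05 ± 0.08 (adjusted p = 0.904). In a contrast of the mean of the human and squirrel monkey groups against macaque, Pclo fell by 0.24 (adjusted p = 0.0216).

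The human against macaque call of Pclo was kept in each of the 32 fits without 1 mouse (adjusted p from 0.00625 to 0.0408). It was lost in 6 of 16 other settings, among them the oligodendrocyte score as a covariate (-0.21, adjusted p = 0.0775) and counts summed per batch (-0.29, adjusted p = 0.0545).

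Erc2, an active zone scaffold that binds RIM proteins, lay at 156 to 232 CPM (median 172) in human, 168 to 250 CPM (median 181) in squirrel monkey and 173 to 230 CPM (median 189) in macaque mice. These ranges overlapped nearly throughout. Its log2 fold change was -0.13 ± 0.08 in human against macaque mice (adjusted p = 0.303) and -0.18 ± 0.08 against squirrel monkey mice (adjusted p = 0.47). Bassoon (Bsn), the large relative of piccolo, ranged from 147 to 337 CPM over the 32 mice, with a value of 0.04 in human and -0.17 in squirrel monkey mice against macaque. The priming factor Munc13-1 (Unc13a, 86.3 to 138 CPM) and the RIM proteins that tether vesicles and calcium channels (Rims1, 144 to 236 CPM, and Rims2, 84.1 to 145 CPM) had human against macaque values of 0.01, 0.04 and -0.05. An exon of Colgalt1 lies over the last exon of Unc13a on the opposite strand, so its count is uncertain.

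Of the calcium sensors, synaptotagmin 1 (Syt1), the sensor for fast release, was lower in human mice by a margin that depended on the setting. It lay at 1200 to 1604 CPM (median 1357) in human, 1246 to 1659 CPM (median 1483) in squirrel monkey and 1242 to 1792 CPM (median 1549) in macaque mice. The groups overlapped, with 10 of 12 human mice below the macaque median. Syt1 fell by 0.17 ± 0.06 on the log2 scale in human against macaque mice (adjusted p = 0.0418). Squirrel monkey against macaque the value was -0.07 ± 0.06 (adjusted p = 0.665). The call was lost in 14 of 32 fits without 1 mouse and in 10 of 16 other settings, such as no filter on low counts (adjusted p = 0.0987).

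Doc2b, a sensor of high calcium affinity linked to spontaneous release, was sparse and had the highest log2 fold change of the 34 members in human against macaque mice. It lay at 9.80 to 46.9 CPM (median 21.4) in human, 19.6 to 27.1 CPM (median 23.1) in squirrel monkey and 6.42 to 24.5 CPM (median 14.4) in macaque mice. All 8 squirrel monkey mice and 9 of 12 human mice were above the macaque median. The highest level was in human replicate 7, a mouse with high striatal markers described further down. The log2 fold change was 0.59 ± 0.21 in human (adjusted p = 0.0666) and 0.54 ± 0.23 in squirrel monkey mice (adjusted p = 0.302), and neither passed. With counts summed per batch, Doc2b was the 1 member that passed between human and macaque mice.

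The other sensors did not pass. Syt11, a synaptotagmin that does not bind calcium, lay at 1182 to 1616 CPM with a human against macaque value of 0.02 (95% confidence interval -0.07 to 0.11). Rabphilin (Rph3a), a Rab3 effector, lay at 86.0 to 258 CPM (value 0.18, adjusted p = 0.414). Syt2, a fast sensor of hindbrain and some inhibitory neurons, was sparse at 1.77 to 12.1 CPM and had the largest spread of the members, a biological coefficient of variation of 31.1%. Its value of 0.11 had an interval of -0.43 to 0.65, so a change of that size was not detectable at this depth.

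Of the 6 SNARE and complexin genes, none passed in any comparison. Snap25, the plasma membrane SNARE with the highest level of this group, lay at 1318 to 1716 CPM (median 1516) in human, 1388 to 1829 CPM (median 1612) in squirrel monkey and 1289 to 2116 CPM (median 1519) in macaque mice. The human and squirrel monkey ranges lay inside that of the macaque mice. Its log2 fold change was -0.07 ± 0.07 in human (adjusted p = 0.58; 95% confidence interval -0.20 to 0.06) and 0.01 ± 0.07 in squirrel monkey mice (adjusted p = 0.976) against macaque.

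The 2 vesicle SNAREs gave different values. Vamp1 lay at 44.0 to 79.8 CPM (median 54.3) in human, 40.1 to 76.7 CPM (median 54.5) in squirrel monkey and 28.9 to 59.1 CPM (median 47.3) in macaque mice. Above the macaque median were 10 of 12 human and 6 of 8 squirrel monkey mice. Its value was 0.30 in human (SE 0.11, adjusted p = 0.0837) and 0.30 in squirrel monkey mice (SE 0.12, adjusted p = 0.272). Vamp2, the main vesicle SNARE of the forebrain, lay at 1172 to 1499 CPM over all mice, with a human against macaque value of 0.02 and an interval of -0.07 to 0.11. The difference between Vamp1 and Vamp2 was not tested.

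Syntaxin 1A (Stx1a, 160 to 289 CPM), the partner of Snap25 in the plasma membrane, had a human against macaque value of -0.08. The complexins, which clamp and promote SNARE fusion, had values of 0.18 for Cplx1 (218 to 461 CPM, adjusted p = 0.188) and 0.17 for Cplx2 (348 to 622 CPM, adjusted p = 0.176). For each complexin 10 of 12 human mice were above the macaque median, and human replicate 7 held the highest Cplx1 level. That mouse also had the highest summed level of striatal markers, 877 CPM against 345 CPM in the next mouse. It held the highest Doc2b (46.9 CPM) and Vamp1 (79.8 CPM) levels of all mice as well. In the human group it was the highest mouse for 7 members and the lowest for 6. The part of such tissue in these levels was not tested.

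Of the 8 vesicle membrane and Rab3 genes, Rab3c passed between human and macaque mice, Sv2b in the combined contrast and Syngr1 in the F-test. Rab3c, a vesicle-bound GTPase, lay at 273 to 430 CPM (median 356) in human, 305 to 481 CPM (median 374) in squirrel monkey and 355 to 469 CPM (median 408) in macaque mice. The groups overlapped, and 10 of 12 human mice were below the macaque median. Rab3c fell by 0.25 ± 0.07 on the log2 scale in human against macaque mice (adjusted p = 0.0321), with a value of -0.13 ± 0.08 in squirrel monkey mice (adjusted p = 0.548). Rab3c also fell with the oligodendrocyte score (adjusted p = 0.048, edgeR), but this slope was lost in 19 of 32 fits without 1 mouse. It was lost in 9 of 14 other settings too. With the score as a covariate, the human against macaque value of Rab3c was -0.18 (adjusted p = 0.128). The human against macaque call of Rab3c was lost in 7 of 32 fits without 1 mouse (human replicate 1, 3, 7 or 12, or macaque replicate 3, 9 or 10, adjusted p up to 0.065). It was lost in 7 of 16 other settings, among them library totals alone (adjusted p = 0.0648), counts summed per batch (adjusted p = 0.0624) and the removal of batch A, E or F (adjusted p up to 0.199). Its relative Rab3a lay at 738 to 1027 CPM and had a value of 0.03 (interval -0.07 to 0.13); an exon of Mpv17l2 on the opposite strand lies over its last exon.

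Sv2b, a vesicle glycoprotein of the SV2 family, lay at 345 to 543 CPM (median 476) in human, 392 to 521 CPM (median 440) in squirrel monkey and 372 to 740 CPM (median 523) in macaque mice. No squirrel monkey mouse and 2 of 12 human mice were above the macaque median. In the mean of human and squirrel monkey groups against macaque, Sv2b fell by 0.23 ± 0.07 (adjusted p = 0.046, edgeR), while the separate values of -0.21 in human (adjusted p = 0.0978) and -0.26 in squirrel monkey mice (adjusted p = 0.174) did not pass. The combined call was lost in 21 of 32 fits without 1 mouse (adjusted p up to 0.111) and in 9 of 16 other settings, such as library totals alone (-0.21, adjusted p = 0.0557) and the oligodendrocyte covariate (-0.16, adjusted p = 0.253). Sv2a, its relative found at most synapses, lay at 648 to 830 CPM with values of -0.03 and -0.02.

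Synaptogyrin 1 (Syngr1), a tetraspan vesicle protein, lay at 277 to 365 CPM (median 321) in human, 211 to 319 CPM (median 265) in squirrel monkey and 245 to 316 CPM (median 296) in macaque mice. The squirrel monkey mice were lowest by median and the human mice highest, with overlap between the groups. Syngr1 passed the F-test (adjusted p = 0.0157) and did so in each of the 32 fits without 1 mouse (adjusted p from 0.00523 to 0.0348). The F-test call was lost in 7 of 16 other settings: the library total as a covariate (adjusted p = 0.0896), counts summed per batch (adjusted p = 0.143) and the removal of batch A, B, D, E or F (adjusted p from 0.0518 to 0.107). Its largest pairwise value was 0.28 ± 0.06 in human against squirrel monkey mice (adjusted p = 0.061). Its values against macaque were 0.16 ± 0.06 in human (adjusted p = 0.0869) and -0.12 ± 0.07 in squirrel monkey mice (adjusted p = 0.441). DESeq2, limma voom and the oligodendrocyte covariate each put the human against squirrel monkey difference past the threshold, and so did the removal of human replicate 12 or squirrel monkey replicate 3.

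The ribosomal protein gene Rpl3 overlaps Syngr1 on the opposite strand, though not in its last exon. Rpl3 rose by 1.29 in human (adjusted p = 1.29e-07) and 0.90 in squirrel monkey mice (adjusted p = 0.00315) against macaque. Use of strand in the counting is not given in the sources used here, so reads from the stretch where the 2 genes overlap cannot be told apart. The part of Rpl3 reads in the Syngr1 counts was not tested.

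Synaptophysin (Syp), the classic marker of synaptic vesicles, lay at 1016 to 1354 CPM (median 1096) in human, 1030 to 1199 CPM (median 1105) in squirrel monkey and 1021 to 1436 CPM (median 1134) in macaque mice. The ranges of human and squirrel monkey mice lay nearly within that of macaque mice. Its log2 fold change was -0.03 ± 0.05 in human (95% confidence interval -0.14 to 0.08, adjusted p = 0.795) and -0.07 ± 0.06 in squirrel monkey mice (adjusted p = 0.671). An exon of Gm14703 lies over its last exon on the opposite strand. Syngr3, a relative of Syngr1, lay at 137 to 237 CPM (value -0.13, adjusted p = 0.301). Beta-synuclein (Sncb) lay at 192 to 458 CPM (value -0.17, adjusted p = 0.318) and was the member with the smallest p between batches of 1 donor species (B against A, 0.46 ± 0.14, adjusted p = 0.247).

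The 4 endocytosis genes did not pass, and each had a negative value in both comparisons with macaque mice, which share those mice. Synj1 (synaptojanin 1), a phosphatase that helps strip clathrin coats, lay at 403 to 517 CPM (median 444) in human, 410 to 539 CPM (median 431) in squirrel monkey and 363 to 624 CPM (median 500) in macaque mice. In the human and in the squirrel monkey group 1 mouse was above the macaque median. Its value was -0.14 ± 0.06 in human (adjusted p = 0.145) and -0.14 ± 0.07 in squirrel monkey mice (adjusted p = 0.358).

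Amphiphysin (Amph), which binds dynamin and curved membranes, lay at 189 to 243 CPM (median 229) in human, 193 to 258 CPM (median 214) in squirrel monkey and 183 to 377 CPM (median 245) in macaque mice. No human mouse was above the macaque median, while the macaque group held both the lowest and the highest mouse. The value was -0.17 ± 0.08 in human (adjusted p = 0.185) and -0.19 ± 0.09 in squirrel monkey mice (adjusted p = 0.345). Dynamin 1 (Dnm1), the GTPase that cuts vesicles from the membrane, lay at 433 to 530 CPM (median 461) in human, 427 to 518 CPM (median 449) in squirrel monkey and 443 to 550 CPM (median 508) in macaque mice. Its ranges overlapped over most of their length. Its value was -0.08 ± 0.05 in human (adjusted p = 0.33) and -0.11 ± 0.05 in squirrel monkey mice (adjusted p = 0.361). Endophilin A1 (Sh3gl2) lay at 226 to 391 CPM with values of -0.08 and -0.09.

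**Figure D3:**
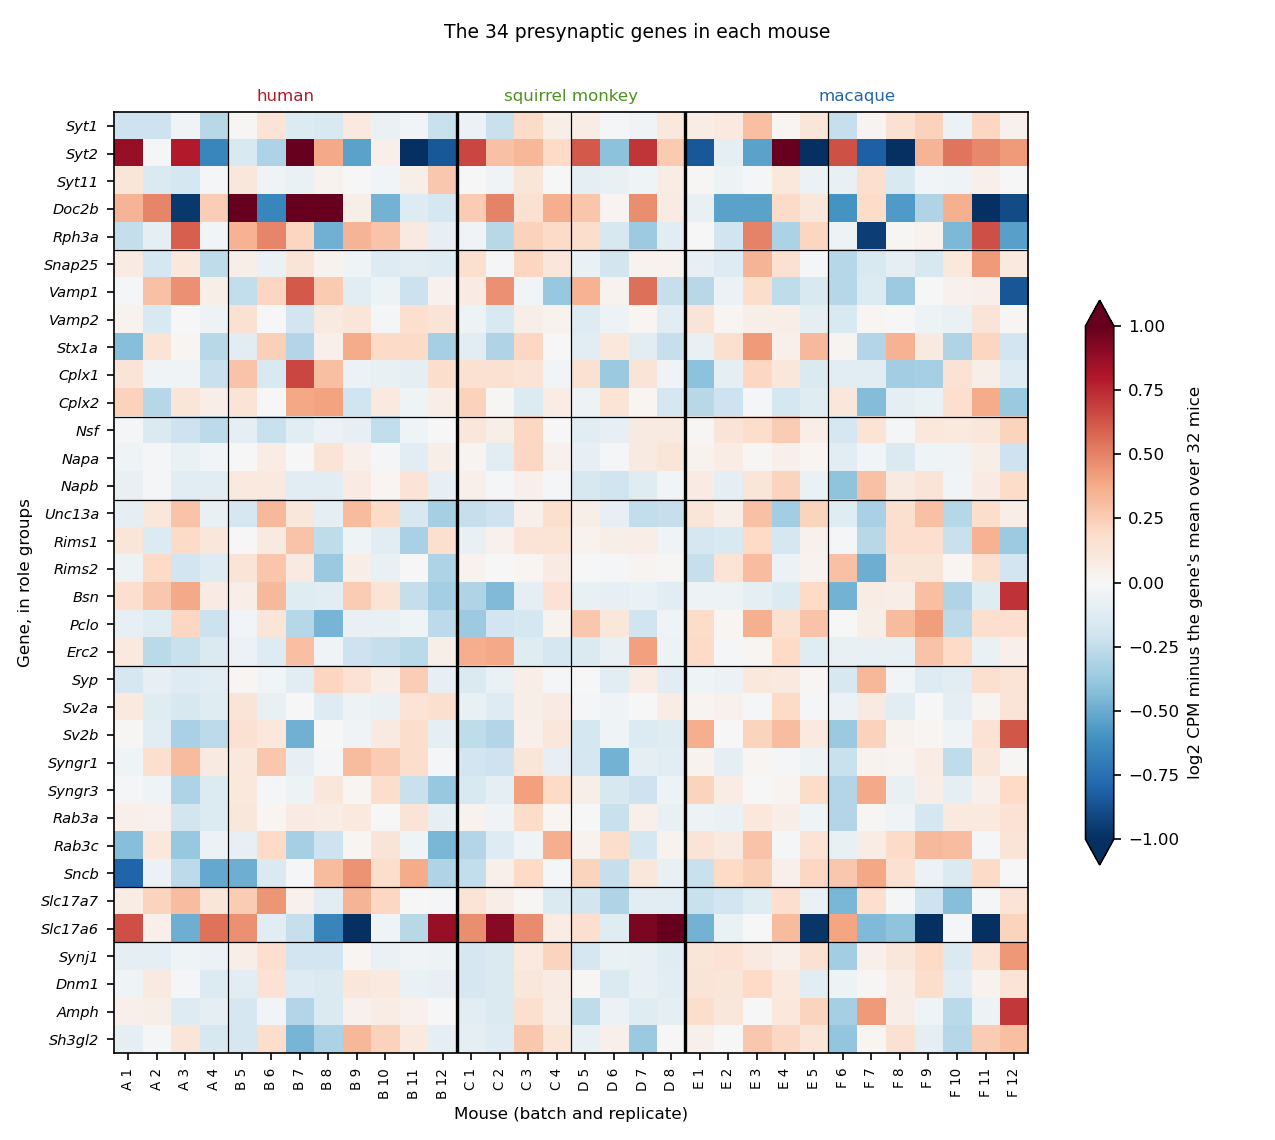
The 34 members (rows, in role groups) in each of the 32 mice (columns, by donor group, batch and replicate). Colour is log2 CPM minus the gene's mean over the 32 mice, from -1 (blue) to 1 (red). Syt2, Doc2b and Slc17a6, with coefficients of variation from 28.1% to 31.1%, have the strongest colours, and macaque replicate 6 is pale to mid blue in many rows.

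By role, the median log2 fold change of human against macaque mice was 0.11 for the 5 calcium sensors, 0.09 for the 6 SNARE and complexin genes, -0.07 for the 3 NSF and SNAP genes, -0.02 for the 6 active zone genes, -0.08 for the 8 vesicle membrane and Rab3 genes, 0.28 for the 2 transporters and -0.11 for the 4 endocytosis genes. Each of these groups is small, and their differences from other genes were not tested. In the contrast of the mean of the human and squirrel monkey groups against macaque, 3 of the 34 members passed, all lower (Pclo, Nsf and Sv2b, 8.82% of members against 5.51% of all genes, of which 2.7% were higher and 2.81% lower). That count was the least stable, at 0 to 5 when 1 mouse was left out. It was 0 without macaque replicate 3 or 9 and 5 without macaque replicate 6, when Synj1 and Slc17a6 joined. The combined call of Nsf was lost in 27 of 32 fits without 1 mouse and in 14 of 16 other settings, and that of Pclo in 2 of 32 and 6 of 16. Removal of human replicate 1 or 7 or of macaque replicate 3 or 9 each left 3 of the 5 members of human against macaque (Nsf, Pclo and Slc17a7). The F-test called 5 members (Nsf, Syngr1, Slc17a7, Pclo and Slc17a6), while 6.15% of all genes passed it. Its calls of Nsf, Slc17a7 and Pclo were lost in 4, 7 and 11 of 16 other settings and in 0, 1 and 16 of 32 fits without 1 mouse.

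The interval of the difference bounds what could have been missed. In human against macaque mice, the 95% confidence interval lay within a 1.3-fold change in either direction for 25 of 34 members, and in squirrel monkey against macaque mice for 27 of 34. Between human and squirrel monkey mice it did so for 27 of 34. The members whose intervals reached past that fold included Syt2, Doc2b and Slc17a6 in all 3 comparisons.

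Batches of the same donor species were compared in the same way, with fewer mice. Batch A held 4 mice and B 8, C and D held 4 each, and E held 5 and F 7. A count of 0 between batches therefore does not show that batches differed less than groups. Between B and A the median absolute log2 fold change was 0.0897 for the members and 0.142 for all genes. In human against macaque mice these were 0.129 and 0.122. Of the 34 members, 0 passed between batches B and A, where 3 genes of the 12651 did (0.0237%), and 0 passed between D and C or between F and E, where 0% of all genes did (edgeR). At an unadjusted p under 0.05, the members numbered 2, 0 and 0 of 34 in these comparisons, against 11.6%, 6.98% and 3.15% of all genes. Both human batch means lay on the same side of both macaque batch means for 23 members (8 higher and 15 lower, 67.6%), and so they did for 49% of all genes. For squirrel monkey against macaque mice the count was 22 (64.7% against 43.3%), and for human against squirrel monkey mice 12 (35.3% against 34.2%). For no member did all mice of one group lie outside the range of another, which 0.198% of all genes showed between human and macaque mice, 0.0237% between squirrel monkey and macaque mice and 0.0079% between human and squirrel monkey mice.

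The members were also set against the oligodendrocyte score, the mean of centred log2 CPM over 15 oligodendrocyte genes, in a fit with the donor group beside it. The score ran from -0.93 to 2.55 in human, -0.74 to 1.59 in squirrel monkey and -1.07 to 1.03 in macaque mice, with medians of -0.18, 0.18 and -0.58. The highest macaque score was that of macaque replicate 6. Slopes passed for 5 of 34 members (14.7%, against 5.98% of all genes, 4.13% higher and 1.85% lower). Slc17a6 rose with the score by 0.34 ± 0.08 log2 units per unit (adjusted p = 0.00346, edgeR). The others fell: Sncb by 0.16 (adjusted p = 0.0259), Stx1a by 0.13 (adjusted p = 0.0371), Syp by 0.08 (adjusted p = 0.038) and Rab3c by 0.11 (adjusted p = 0.048). Negative slopes numbered 22 of 34, with a median of -0.04 (all genes -0.00423). With the score as a covariate, 3 members passed between human and macaque mice (Nsf, Slc17a7 and Syngr1), and without the 5 mice of highest score 2 did (Nsf and Slc17a7). The slopes rested on few mice: 0 members passed without batch B or without those 5 mice (human replicates 1, 4 and 12, squirrel monkey replicates 1 and 8), and 1 passed without human replicate 1 or human replicate 9. The Slc17a6 slope passed in each of the 32 fits without 1 mouse (adjusted p from 0.000444 to 0.0356, edgeR). Those of Sncb, Stx1a, Syp and Rab3c were lost in 3, 8, 8 and 19 of these fits.

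**Figure D4:**
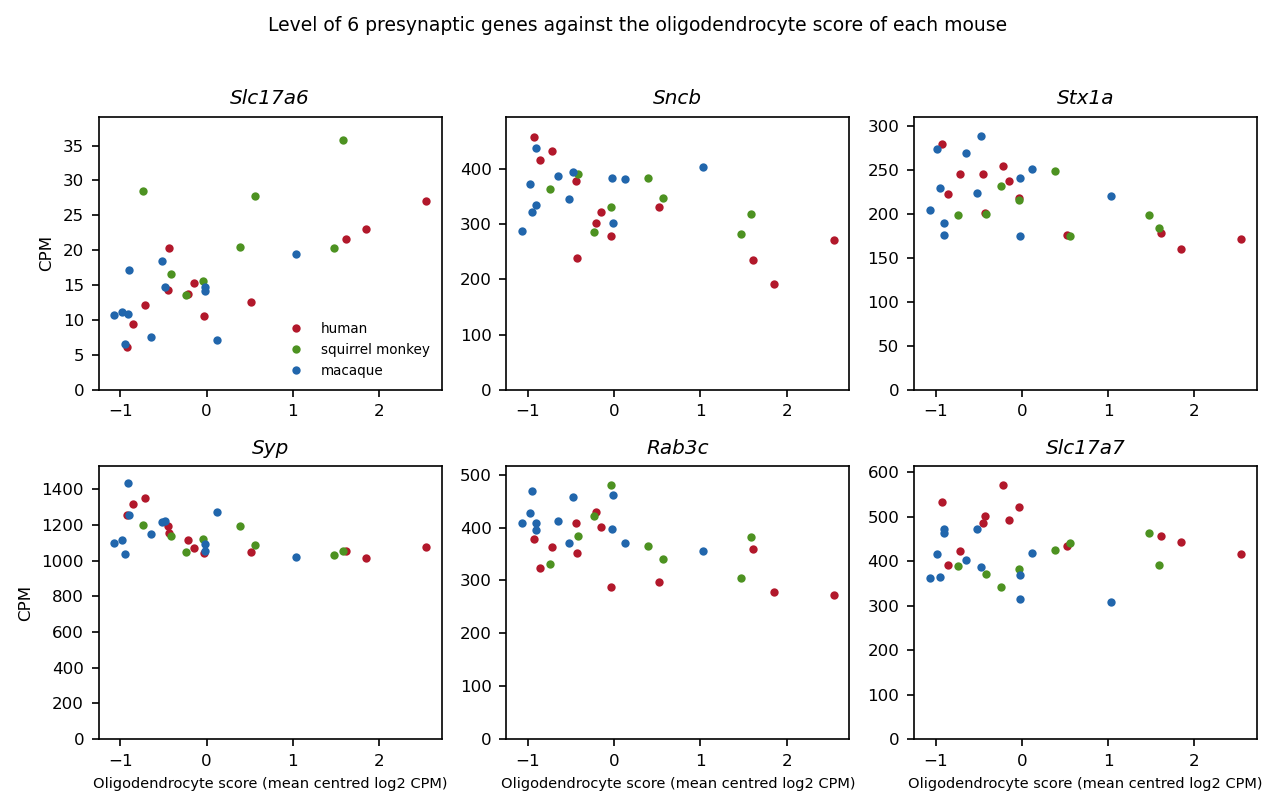
Level in CPM (linear axis from 0) of the 5 members whose slope passed, and of Slc17a7, against the oligodendrocyte score of each mouse, coloured by donor group. The 5 mice with a score above 1.2 are human and squirrel monkey mice, and their levels of Sncb (up to 319 CPM), Stx1a (up to 199 CPM) and Syp (up to 1077 CPM) lie below the means of the 32 mice (341, 218 and 1143 CPM). Rab3c ran from 273 to 383 CPM in these mice, on both sides of its mean of 378 CPM.

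Of the marker lists, 5 of 15 oligodendrocyte genes rose in human against macaque mice (Gjc3, Cldn11, Mal, Mog and Trf). In squirrel monkey against macaque mice 0 of 15 passed. All 15 values were positive in both comparisons, with median log2 fold changes of 1.2 and 0.996 (all genes -0.00105 and 0.000759). Among 8 excitatory markers, which include Slc17a7 itself, Cck and Neurod6 fell in human mice, by 0.29 and 0.41 (adjusted p = 0.017 and 0.0322). Neurod6, a transcription factor of cortical excitatory neurons, lay at 96.8 to 259 CPM in human and 152 to 324 CPM in macaque mice. The summed level of the 8 excitatory markers was 3838 to 6288 CPM in human, 4261 to 4949 CPM in squirrel monkey and 4841 to 6076 CPM in macaque mice. Of 8 inhibitory markers, Slc32a1 rose in human mice, by 0.45 ± 0.13 (adjusted p = 0.0277). Of the 8 values of that list in human against macaque mice, 3 were positive, with a median of -0.0858. Human replicate 7, the mouse with the highest striatal markers, had the highest Slc32a1 level (141 CPM, human median 59.2 CPM) and the highest Gad1 level (234 CPM, human median 127 CPM). Without that mouse the Slc32a1 value was 0.29 ± 0.09 and did not pass (adjusted p = 0.0598), and the part of striatal tissue in it was not tested. In human against macaque mice, Penk of 7 striatal, Igf2 of 6 meningeal, Ly6c1 of 8 endothelial and Lamp5 of 8 upper layer genes also rose. In that comparison, 7 of 7 striatal and 5 of 6 meningeal values were positive (medians 0.412 and 0.49). Of the endothelial and of the upper layer values, 3 of 8 each were positive (medians -0.0148 and -0.172). Of 10 astrocyte, 10 microglia, 4 blood and 8 deep layer genes 0 passed. Igf2 also passed in squirrel monkey against macaque mice. The part of cell composition in the members' values was not tested.

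Of 75 other presynaptic genes, 71 passed the filter. In human against macaque mice 5 of the 71 rose and 4 fell (12.7% of them, against 8.01% of all genes), with a median log2 fold change of -0.05. The count of 9 was 5 to 12 when 1 mouse was left out and 2 to 9 over 16 other settings. It was 5 without human replicate 7, when Cplx3, Slc32a1, Cadps2 and Syt16 did not pass (adjusted p from 0.0598 to 0.0802), 5 with the oligodendrocyte covariate or without the 5 mice of highest score, 4 without batch A, 2 without batch E and 3 without batch F. Those higher were Syn1 (synapsin I, which tethers vesicles to each other), Rab3b, Cplx3, Slc32a1 (the vesicular transporter of GABA) and Cadps2 (a priming factor of dense-core vesicles), and those lower were Ppfia2 (liprin-alpha-2, an active zone scaffold), Rab5a (an early endosome GTPase), Syn2 (synapsin II) and Syt16. Syn1 was at 1.86 to 415 CPM in human, 7.98 to 351 CPM in squirrel monkey and 1.42 to 5.78 CPM in macaque mice, a spread within 1 group that no member showed. Ppfia2 lay at 127 to 182 CPM (median 156) in human, 163 to 216 CPM (median 197) in squirrel monkey and 182 to 253 CPM (median 197) in macaque mice, and fell by 0.39 ± 0.06 in human against macaque mice (adjusted p = 9.42e-05, edgeR). All 12 human mice lay below the lowest macaque mouse.

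Rab3b, a relative of Rab3c, went the other way, at 67.1 to 135 CPM (median 119) in human, 91.8 to 141 CPM (median 127) in squirrel monkey and 70.1 to 113 CPM (median 82.8) in macaque mice. It rose by 0.39 in human (adjusted p = 0.00582) and 0.53 in squirrel monkey mice (adjusted p = 0.00651). The further values of human against macaque were 0.90 for Cplx3, 0.45 for Slc32a1, 0.33 for Cadps2, -0.30 for Rab5a, -0.29 for Syn2 and -0.23 for Syt16. In squirrel monkey against macaque mice, Syn1, Cadps2 (0.64) and Rab3b rose and Syn2 fell (by 0.38), in a comparison where 0.64% of all genes passed. That count of 4 was 1 without batch C, 2 without batch E, 0 without batch F and 2 without the 5 mice of highest oligodendrocyte score. Between human and squirrel monkey mice 0 of the 71 passed in edgeR (0.134% of all genes) and 4 had an unadjusted p under 0.05. The count was 1 with DESeq2, with voom, without batch C, or without human replicate 11 or 12 or macaque replicate 9. In the mean of both groups against macaque, Syn1, Rab3b and Cadps2 rose, and Syn2, Ppfia2, Synpr (synaptoporin, a relative of synaptophysin, by 0.73), Rimbp2 (a RIM-binding protein, by 0.36) and Svop (a relative of the SV2 proteins, by 0.25) fell. These are 8 of 71 (11.3%), where 5.51% of all genes passed. The count was 14 without macaque replicate 6 and 6 to 14 over the removals of 1 mouse. It was 5 with the oligodendrocyte covariate or without the 5 mice of highest score, 4 without batch C or E, and 2 without batch F.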

How the data were processed

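Frontal cortex RNA of 32 mice was read by TagSeq, per the labels' protocols. The authors deposited 1 table of raw counts per Ensembl gene, on build GRCm39 per the submitters' processing notes. The aligner, counter, annotation, use of strand and handling of duplicates are not stated in the sources used here. Of its columns, 3 belong to no sample used here and were left out. Rows without a symbol (76, 0.031% of counts) stayed in the fit. Depth was 1035036 to 2089308 counts, so that 5 CPM correspond to about 7.67 counts at median depth. Among 160 pairs of mice of 1 group, 0 held identical counts, and chi-square per degree of freedom was 1.39 to 6.98.

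In edgeR 4.0.16 (R 4.3.3), filterByExpr by donor group (count of at least 10, total of at least 15) left 12651 genes, TMM factors were 0.955 to 1.04, and the quasi-likelihood test was fitted to the 32 mice by donor group without covariates. Benjamini-Hochberg adjustment ran over all 12651 genes, with a threshold of 0.05. CPM are counts scaled to TMM-adjusted library totals. A second fit on the 6 batches gave differences between batches of 1 donor species. The script was tested on simulated counts.

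The 34 members, the gene lists and the tests were chosen with earlier results of these data known. All members are named. Full values are given for those past the threshold in any comparison or the F-test, then by smallest F-test p up to 14, and for the highest member of each role. Named among the other presynaptic genes are all past the threshold. The oligodendrocyte score fit, the alternatives for the other presynaptic genes and the removal of the 5 high-score mice were added after seeing the data. Alternatives were other scalings, filters and covariates, DESeq2 1.42.0, limma 3.58.1 voom, sums per batch, and each mouse or batch left out.

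Overlapping genes came from GENCODE M21 and promoters from RefSeq, both of GRCm38. Of the 34 members, 19 had a gene on the opposite strand, 3 with an exon over the last exon, and 0 had a near-identical copy of the 3′ end (100 bases at 95% identity within the last 300 bases).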

Additional observations from a re-analysis of the deposited data

Results flagged for a closer look

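Each member's levels in the 8 squirrel monkey mice were checked for a mouse far from the others, and 1 of 34 stood out. Cplx1, which encodes complexin 1, was at 225 CPM in squirrel monkey replicate 6, while the nearest mouse was at 282 CPM and the highest of the group at 322 CPM. The gap to the nearest mouse was 0.592 of the group's range, above Dixon's critical ratio of 0.526 for 8 values. Chance alone flags about 5% of groups. Squirrel monkey replicate 6 was the lowest mouse of its group for 10 of the 34 members. The groups of 12 mice were not checked this way.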

How the results depend on the processing

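No paired analysis was possible because the labels number no replicates, and the numbers used here only name mice. No member turned its sign under the alternatives run in a comparison where it had passed. Under another scaling, 3 values near 0 turned sign (Rims2 in squirrel monkey against macaque, Vamp1 in human against squirrel monkey and Vamp2 in the combined contrast). The other alternatives turned more values that had not passed. Among them were Synj1 in human against squirrel monkey mice (8 of 16 settings) and, in squirrel monkey against macaque mice, Syt11 (6 of 16) and Slc17a7 (3 of 16). In human against macaque mice, 5 members passed. The count was 3 with the library total as a covariate, 3 with the oligodendrocyte score as a covariate, 1 with counts summed per batch, 2 without batch A, 1 without batch E, 1 without batch F, and 2 without the 5 high-score mice. It ranged from 3 to 7 when 1 mouse was left out, and batch removals also lower the number of mice. In squirrel monkey against macaque mice the count of 0 became 1 with DESeq2, voom, counts summed per batch or without batch B (0 to 1 with 1 mouse left out). In human against squirrel monkey mice it became 1 with the oligodendrocyte covariate, 2 with DESeq2 (Nsf and Syngr1) and 1 with voom (0 to 1).

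The combined contrast called 3 members. It called 1 with library totals alone, without a low count filter, or without batch A or D. It called 0 with the oligodendrocyte covariate, without batch C, E or F, or without the 5 high-score mice (0 to 5 with 1 mouse left out). Pclo alone was left without human replicate 1, 2, 4 or 7, squirrel monkey replicate 1, 2, 7 or 8, or macaque replicate 1, 5, 7, 8, 11 or 12. The F-test called 5 members. It called 1 with the library total as a covariate, counts summed per batch or without batch F, 3 with the oligodendrocyte covariate, without batch C or without the 5 high-score mice, 2 without batch B or D, and 0 without batch A or E (3 to 7 with 1 mouse left out). It called 3 without squirrel monkey replicate 2 or 7, or without macaque replicate 1, 5, 8, 9 or 11. The slope on the oligodendrocyte score called 5 members, against 3 without a filter, 2 without batch A, 0 without batch B, 2 without batch C and 0 without the 5 high-score mice (1 to 5). It called 2 without human replicate 4, 10 or 11, and 3 without human replicate 12, squirrel monkey replicate 1, or macaque replicate 6 or 8. The cause of these changes was not tested. Between batches of 1 donor species, which held fewer mice than the groups, the counts stayed at 0 under each alternative run. Low counts limit the precision of Syt2, Doc2b and Slc17a6. The sources used here state no molecular identifiers, so several tags may come from 1 molecule.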
